A study of Mus musculus with 35 samples.

Results

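Endothelial cells line every blood vessel of the lung, and 39 genes that mark them across vessel types were followed here in RNA of whole mouse lung. The genes were listed by symbol. Each was read by 1 probe set, the brightest on average among those tied to exactly 1 symbol, and 38 of the 39 were measured, out of 19938 genes in all. Tspan7 had no such probe set and is not analysed here. The study asked how hypercapnia, a raised level of CO2, affects the lung injury that mechanical ventilation causes. It used 35 adult male C57BL/6J mice of 20 to 25 g, 1 Affymetrix array per animal with no pooling. Spontaneous breathing of room air was the control (non-ventilated, 5 arrays). Low stretch ventilation lasted 3 h with 10 ml/kg breaths, 135 per minute, over an end-expiratory pressure of 2 cmH2O, either in plain room air (5 arrays, low stretch normocapnia) or with an inspired CO2 fraction (FiCO2) of 0.12 added to it (5 arrays, low stretch hypercapnia). High stretch ventilation also lasted 3 h, with breaths of 35 to 40 ml/kg at a peak pressure of 27 cmH2O and a rate of 30 to 35 per minute, no end-expiratory pressure and an inspired oxygen fraction of 0.75. Its CO2 fraction was 0 (high stretch normocapnia, 10 arrays) or 0.12 (high stretch hypercapnia, 10 arrays). High and low stretch thus differ in breath size, end-expiratory pressure, rate and oxygen together. All lungs were lavaged after the animal had been bled under anaesthesia, and the labels do not say whether the non-ventilated animals had a tracheostomy.

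These genes cover most of what defines an endothelial cell. VE-cadherin (Cdh5), PECAM-1 (Pecam1) and ESAM hold neighbouring cells together, VE-PTP (Ptprb) and endoglin (Eng) tune the receptors for angiopoietins, VEGF and BMP, and endothelial nitric oxide synthase (Nos3) relaxes the vessel. The transcription factors ERG, TAL1, LMO2 and GATA2 set up and keep the endothelial programme, and KLF2 is switched on by the drag of flowing blood. Several are not strictly endothelial: Cd93 is also made by myeloid cells, Klf2 by lymphocytes, Tal1, Lmo2 and Gata2 by mast cells and megakaryocytes, and Foxf1 by lung mesenchyme.

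Values are log2 signals after robust multi-array averaging (RMA), so a difference of 1 is a doubling, and the medians of the arrays lay between 6.96 and 7.05. No array was a copy of another. Of the 38 genes 37 had a mean above that of the median gene, the exception being the kinase gene Bmx. A gene "passed" when limma, fitted to all 19938 genes and all 35 arrays, gave a Benjamini-Hochberg adjusted p under 0.05 in the comparison. Errors of group means are SDs over arrays and errors of changes are limma standard errors (SE). The labels call the arrays biological replicates.

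Low stretch ventilation in normocapnia was set against spontaneous breathing first. Of the 38 endothelial genes 15 fell, 1 rose and 22 did not pass. Over all genes 5.17% fell and 6.63% rose, against 39.5% and 2.63% of the endothelial genes. The median change of the endothelial genes was -0.19, beside -0.01 over all genes. The falls were uneven: the cell surface genes Clec14a and Myct1 fell by 1.07 and 1.11 on the log2 scale, while Cdh5, Pecam1 and Vwf, at -0.01, -0.06 and -0.06, did not pass. In a whole-lung sample, fewer endothelial cells and less RNA per endothelial cell cannot be told apart.

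Among the 9 adhesion and cell surface glycoprotein genes 3 fell, 1 rose and 5 did not pass. Clec14a, a C-type lectin of endothelial cells that binds the matrix protein multimerin 2, was read by probe set 10400510. It stood at 11.12, 11.08, 11.14, 11.14 and 11.07 in the 5 non-ventilated arrays and at 9.80, 9.97, 10.36, 10.08 and 9.97 in the 5 low stretch normocapnia arrays. The non-ventilated arrays lay within a narrow band and every ventilated array was far below it. The mean went from 11.11 ± 0.04 to 10.04 ± 0.21 (SD, n = 5 each), a 2.11-fold fall (log2 change -1.07 ± 0.16, SE, adjusted p 8.95e-06). Mmrn2, which encodes multimerin 2, fell by 0.36 ± 0.07 on the log2 scale, and Ecscr, an endothelial regulator of chemotaxis, fell by 0.37 ± 0.09. Cd93, a lectin of the same family as Clec14a and also a multimerin 2 binder, went the other way. It read 11.95, 11.84, 11.88, 11.98 and 12.11 without ventilation and 12.13, 12.44, 12.28, 12.29 and 12.19 with it. Again the groups did not overlap, and the rise was 1.24-fold (0.31 ± 0.07, SE, adjusted p 0.00187).

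The defining junction genes showed no change that passed. Cdh5 read 12.05, 11.94, 11.95, 12.08 and 12.05 in the non-ventilated arrays and 11.96, 11.96, 12.00, 12.05 and 12.06 in the ventilated ones, groups that overlapped fully. Its change was -0.01, with a 95% interval from -0.11 to 0.09 and an adjusted p of 0.941. Pecam1 read 11.73, 11.70, 11.76, 11.77 and 11.77 and then 11.64, 11.70, 11.71, 11.75 and 11.64, a change of -0.06 with an interval from -0.16 to 0.05. Both intervals exclude falls of the size seen in Clec14a. Esam, another junction protein gene, was at 0.09 (adjusted p 0.66), the sialomucin genes Cd34 and Emcn at -0.03 and -0.05 (adjusted p 0.853 and 0.852).

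Of 9 measured genes for receptors and other membrane proteins 3 fell and 6 did not pass. Myct1, an endothelial membrane protein gene read by probe set 10367591, gave 9.44, 9.30, 9.49, 9.02 and 9.64 without ventilation and 7.84, 8.00, 8.58, 8.36 and 8.55 with it. Every ventilated array was below every control array, though both groups spread more than in Clec14a. The mean dropped 2.16-fold from 9.38 ± 0.23 and reached 8.27 ± 0.33 (SD, n = 5 each), with an adjusted p of 0.000543. Eng fell by 0.38 ± 0.06 and Ptprb by 0.36 ± 0.07. Robo4, which stabilises vessels, was at -0.21 (adjusted p 0.0777) and the membrane protein gene Cyyr1 at -0.18 (0.251). The natriuretic peptide clearance receptor gene Npr3 was at -0.11 (0.848) and Plvap, which forms the diaphragms of endothelial pores, at -0.10 (0.579). Gpihbp1, which carries lipoprotein lipase to the capillary surface, was at 0.07 (0.722) and the sphingosine 1-phosphate receptor gene S1pr1 at 0.17 (0.165).

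Among 4 genes for secreted proteins 2 fell and 2 did not pass. Egfl7, an endothelial matrix-bound factor read by probe set 10470283, gave 11.18, 10.88, 10.95, 10.84 and 11.06 and then 10.15, 10.31, 10.45, 10.42 and 9.96. The groups lay apart, with a 1.65-fold fall (-0.72 ± 0.13, SE, adjusted p 0.00018). Sema3g, a semaphorin of arterial endothelium, read 10.17, 10.24, 10.47, 10.56 and 10.49 and then 9.55, 9.79, 9.92, 9.78 and 9.68, a 1.56-fold fall with an adjusted p of 8.64e-05. All 5 ventilated arrays were again below the controls. Vwf, the platelet-binding factor stored in endothelial granules, read 11.01, 10.97, 10.90, 10.84 and 10.90 and then 10.81, 10.94, 10.97, 10.88 and 10.72. These groups overlapped, and the change of -0.06 had an interval from -0.24 to 0.13 (adjusted p 0.785). Sema3c, another semaphorin gene, was at -0.03 (adjusted p 0.846).

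Of 9 genes for signalling and cytoskeletal proteins inside the cell 4 fell and 5 did not pass. She, an adaptor protein gene, had 8.87, 8.86, 9.05, 8.87 and 9.17 in the controls and 8.22, 8.17, 8.44, 8.33 and 8.46 in the ventilated arrays. The groups did not overlap and the fall was 1.56-fold (adjusted p 7.13e-05). Nos3 read 7.44, 7.71, 7.75, 7.67 and 7.72 and then 7.12, 7.42, 7.25, 7.41 and 7.39. Its highest ventilated array was just under its lowest control array, which itself lay below the other 4 controls, and the fall was 0.34 ± 0.09 (adjusted p 0.00943). Ushbp1 fell by 0.40 ± 0.08 and Arap3, a GTPase-activating protein gene for RhoA and ARF6, by 0.31 ± 0.07. Palmd, a membrane-associated protein gene, was at -0.33 and did not pass (adjusted p 0.0928) although all 5 ventilated arrays were below all controls. Nostrin, which traffics the NOS3 enzyme, was at -0.19 (0.292), Rasip1, a regulator of vessel lumen formation, at -0.02 (0.946), Kank3 at -0.01 (0.981) and Bmx at 0.23 (0.198).

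Among the 7 transcription factor genes 3 fell and 4 did not pass. Klf2, read by probe set 10572800, gave 10.43, 10.45, 10.67, 10.81 and 10.07 and then 9.83, 9.90, 9.58, 9.68 and 8.98. The control arrays spread widely, yet all ventilated arrays were lower, and the mean went from 10.48 ± 0.28 to 9.59 ± 0.37 (SD, n = 5 each), a 1.85-fold fall with an adjusted p of 0.000101. Erg read 9.94, 9.97, 9.87, 10.04 and 9.78 and then 9.52, 9.60, 9.75, 9.71 and 9.55, a fall by 0.29 ± 0.09 (adjusted p 0.0273) with no overlap. Lmo2 fell by 0.30 ± 0.08. Tal1, its partner in transcription, was at 0.05 (0.776), Gata2 at -0.01 (0.986), Foxf1 at -0.25 (0.0692) and the transcriptional repressor gene Bcl6b at 0.13 (0.704).

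**Figure D1:**
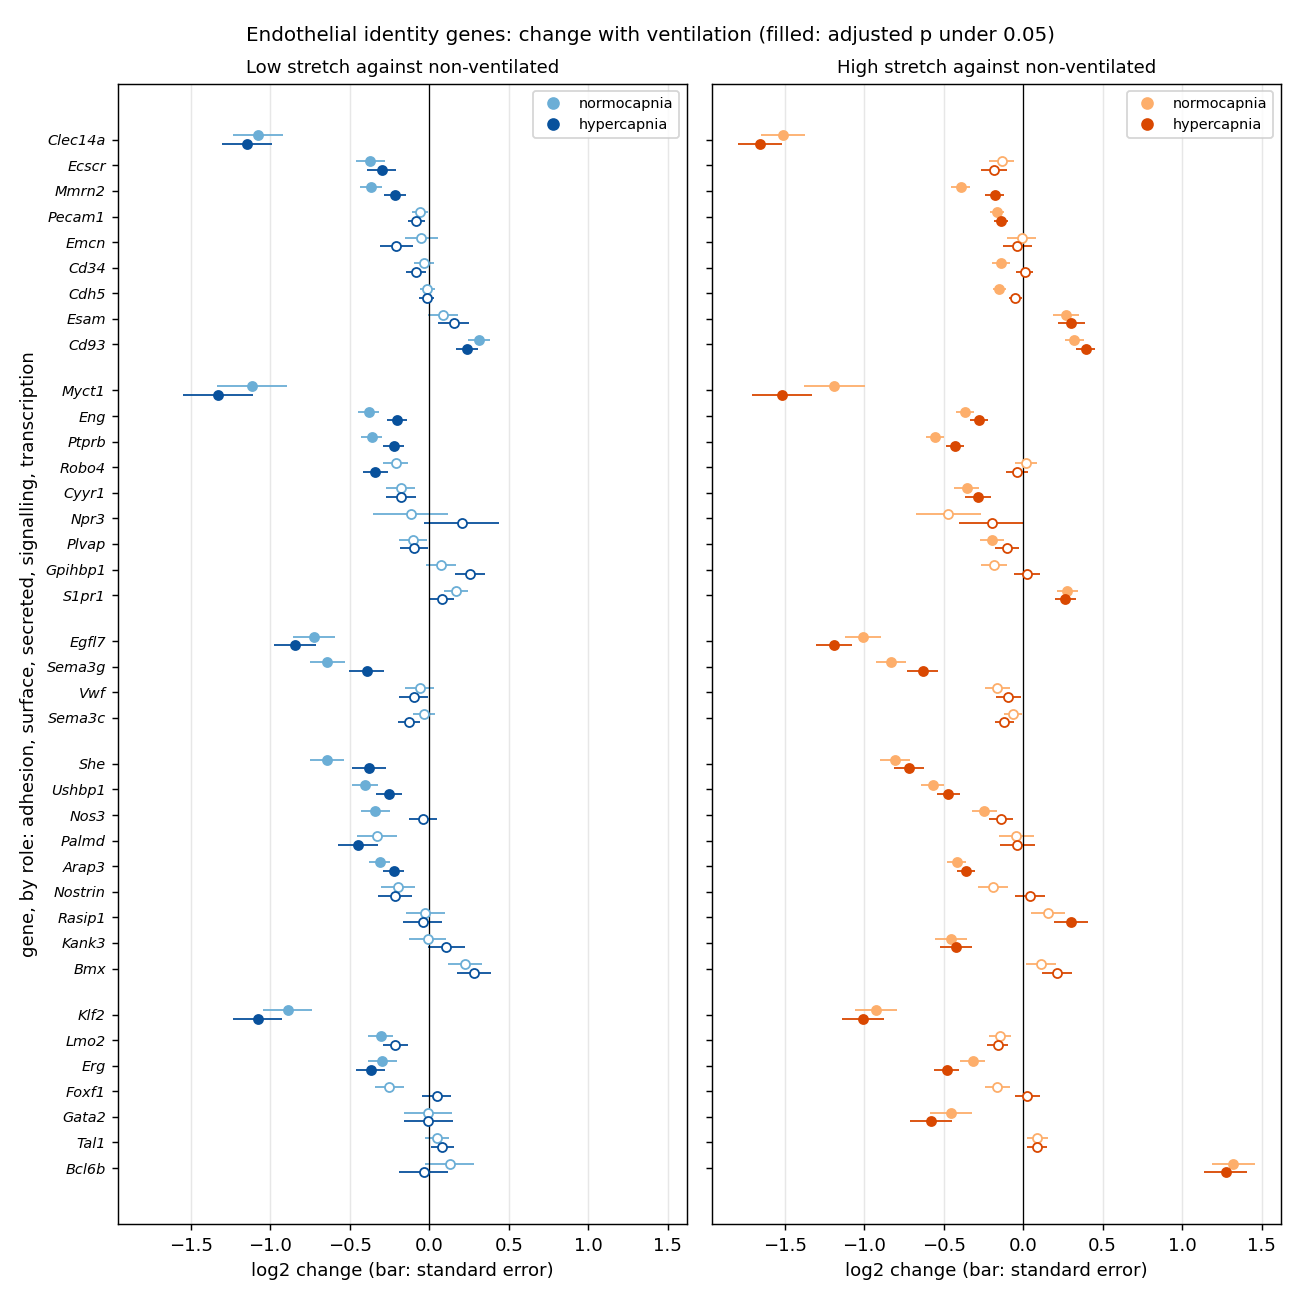
Log2 change of each of the 38 measured endothelial genes against the non-ventilated group at low stretch (left) and high stretch (right), by role from top to bottom; points are limma estimates, bars standard errors, and filled points passed at an adjusted p under 0.05. Clec14a, Myct1, Egfl7 and Klf2 lie furthest to the left in all 4 ventilated groups, and Bcl6b lies above 1 at high stretch, at 1.32 without and 1.27 with added CO2.

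In 15 of the 38 genes every low stretch normocapnia array lay below every non-ventilated array, against 3.54% of all genes. Of the 16 genes that passed, 13 did so under all 10 processing alternatives and in all 10 fits that left out 1 array. Erg lost its call in 6 of those 10 fits (adjusted p up to 0.0805), Lmo2 with only these groups in the fit (0.0526) and Nos3 with array weights (0.0502).

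Promoters from RefSeq (GRCm38.p6) are shown for 4 of the 6 genes with the largest falls in this comparison, because they fell together and differ in role. Egfl7 and She, the rest of the 6, are not shown, though Egfl7 shares the role of Sema3g and fell further. Each window runs from 250 bases before to 50 bases after the start. Capitals mark matches on either strand to any of 6 short words: CCGGAAG and ACAGGAA for ETS factors such as ERG (GGAA is in both of these), AGATAA for GATA factors, CAGCTG for E-box factors such as TAL1, CCACCC for KLF factors and TGTTTAC for forkhead factors such as FOXF1.
Klf2, chr8:72318812-72319111, plus strand: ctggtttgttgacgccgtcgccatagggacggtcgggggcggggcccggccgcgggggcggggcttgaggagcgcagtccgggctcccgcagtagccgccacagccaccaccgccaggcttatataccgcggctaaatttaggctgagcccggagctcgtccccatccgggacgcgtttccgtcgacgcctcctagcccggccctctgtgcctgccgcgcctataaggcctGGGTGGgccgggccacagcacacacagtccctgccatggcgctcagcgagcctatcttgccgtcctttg
Clec14a, chr12:58269209-58269508, minus strand: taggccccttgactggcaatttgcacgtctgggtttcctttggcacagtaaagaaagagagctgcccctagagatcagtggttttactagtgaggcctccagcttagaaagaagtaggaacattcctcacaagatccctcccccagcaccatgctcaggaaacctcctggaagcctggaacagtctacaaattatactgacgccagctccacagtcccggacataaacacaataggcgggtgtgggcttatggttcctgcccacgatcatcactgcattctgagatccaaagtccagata
Myct1, chr10:5593478-5593777, plus strand: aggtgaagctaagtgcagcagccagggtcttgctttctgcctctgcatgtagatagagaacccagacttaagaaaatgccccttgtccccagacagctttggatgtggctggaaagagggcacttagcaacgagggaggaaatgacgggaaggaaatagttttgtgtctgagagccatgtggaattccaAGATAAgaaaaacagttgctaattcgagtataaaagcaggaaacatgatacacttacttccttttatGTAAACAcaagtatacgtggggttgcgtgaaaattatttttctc
Sema3g, chr14:31217623-31217922, plus strand: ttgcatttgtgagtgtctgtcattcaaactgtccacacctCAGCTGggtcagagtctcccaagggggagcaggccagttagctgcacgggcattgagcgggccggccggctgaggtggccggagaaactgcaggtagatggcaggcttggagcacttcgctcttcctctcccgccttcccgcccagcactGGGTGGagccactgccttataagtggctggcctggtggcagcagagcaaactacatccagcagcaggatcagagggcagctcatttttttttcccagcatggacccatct
No word is shared by all 4 windows, and Clec14a holds none of the 6. Only these exact words were searched, so the shorter GGAA is not marked. Each of the 4 windows holds GGAA or its reverse complement TTCC. Promoter windows were in the table for 21 of the 38 genes, 27 windows of 300 bases in all. The word ACAGGAA was in 22.2% of these windows (of Bmx, Egfl7, Emcn, Rasip1 and Ushbp1) against 8.67% of all 32851 windows of the same length, and CCACCC was in 40.7% against 31.5%. CCGGAAG was in 3.7% against 8.86%, AGATAA in 11.1% against 11.2%, CAGCTG in 14.8% against 16.3% and TGTTTAC in 3.7% against 3.65%. A match describes letters in this window and not a bound site.

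Low stretch ventilation in hypercapnia, against the same non-ventilated arrays, also had 15 genes lower, 1 higher and 22 that did not pass, beside 7.02% and 7.99% of all genes. The median change was -0.15, with 0.00 over all genes. Myct1 read 7.08, 8.12, 8.41, 8.10 and 8.54, a 2.51-fold fall (adjusted p 3.88e-05). Clec14a read 9.28, 10.06, 10.16, 9.99 and 10.35, a 2.21-fold fall, and Klf2 read 9.45, 9.37, 9.49, 9.33 and 9.39, a 2.11-fold fall. All arrays of these 3 genes were below the controls, and Klf2 was nearly the same in all 5. Egfl7 fell 1.8-fold and Erg by 0.37 ± 0.09. Palmd (-0.45 ± 0.13) and Robo4 (-0.34 ± 0.08) passed here. Cd93 rose to 12.17, 12.17, 12.23, 12.21 and 12.19, all above the controls (0.24 ± 0.07, SE, adjusted p 0.0144). The other falls that passed were between -0.39 in Sema3g and -0.20 in Eng, and included She, Ecscr, Ushbp1, Arap3, Ptprb and Mmrn2. Nos3 read 7.70, 7.48, 7.66, 7.55 and 7.70, within the control range (-0.04, adjusted p 0.858), and Cdh5, Pecam1 and Vwf were at -0.02, -0.08 and -0.10.

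In 11 genes every array was below the controls, against 3.95% of all genes. Low stretch hypercapnia replicate 1 stood low in many of these genes, with a mean over the 38 genes 0.36 log2 units below the non-ventilated mean where the other 4 arrays lay between -0.24 and -0.10. Without it the median change was -0.10 and 8 genes passed instead of 16: Myct1, Clec14a, Klf2, Egfl7, Robo4, Erg and Arap3 fell and Cd93 rose. With only these 10 arrays in the fit 7 passed. Over all genes 2170 passed without replicate 1 and 1429 with only these 10 arrays, against 2993 with all arrays. The calls of Eng, Ecscr, Mmrn2 and Ushbp1 were each lost in 5 of 10 fits without 1 array.

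**Figure D2:**
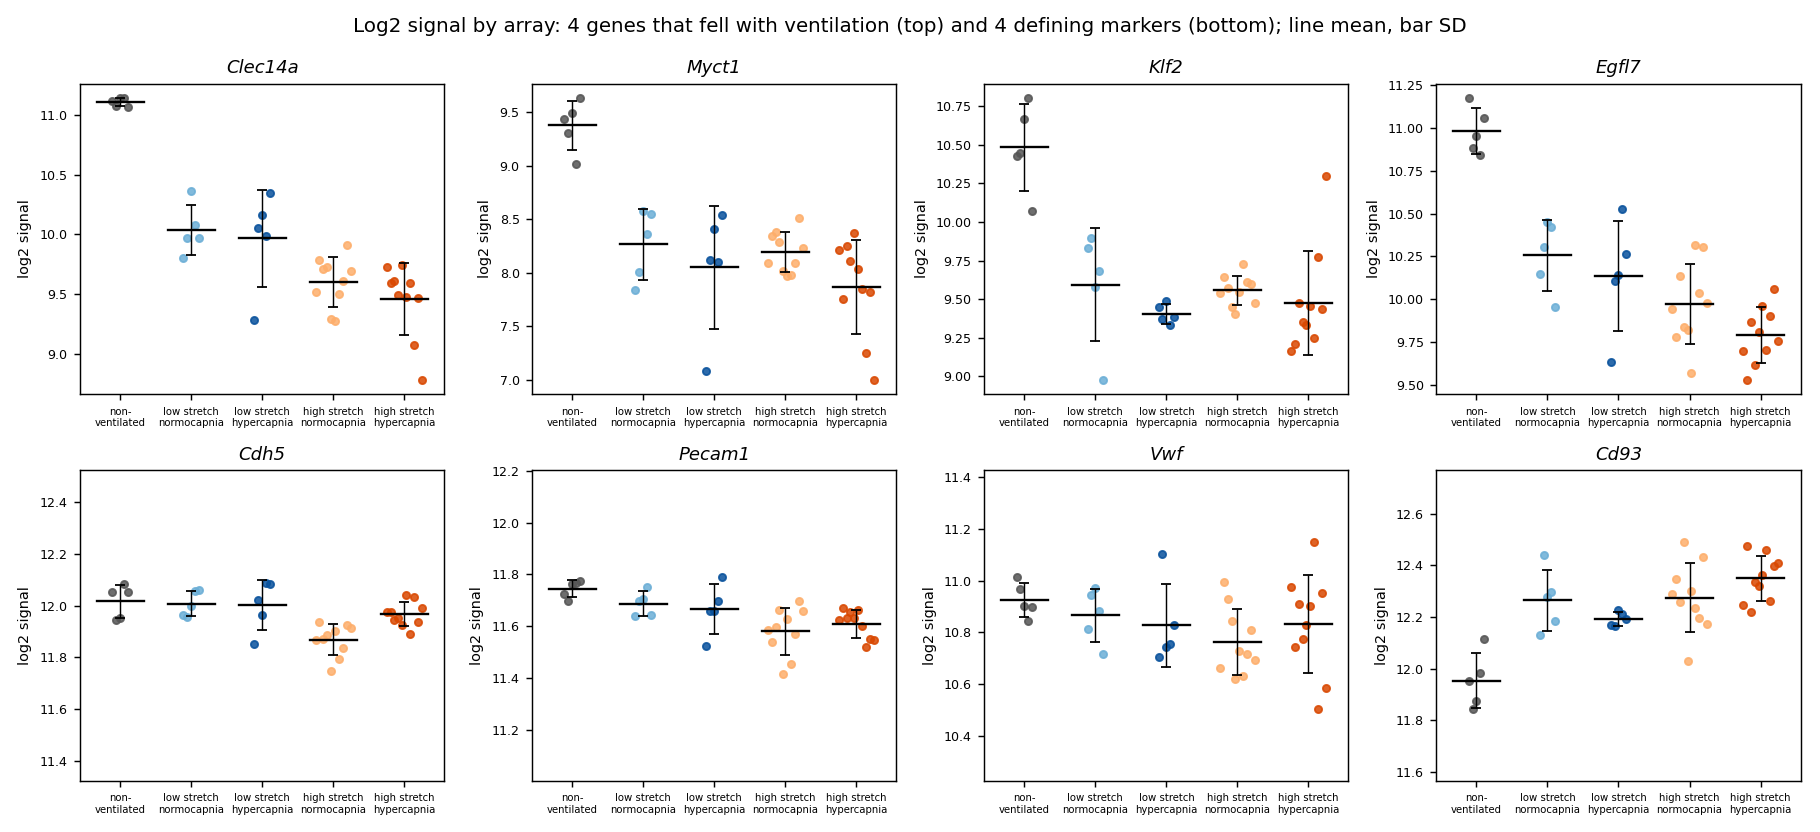
Log2 signal of 8 endothelial genes in each of the 35 arrays (points), with group means (lines) and SDs (bars); the vertical axes differ between panels and do not start at 0. Clec14a drops from about 11.11 to between 9.46 and 10.04 in group mean, while the group means of Cdh5 stay between 11.87 and 12.02.

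High stretch in normocapnia was compared with the same controls to give the distance from spontaneous breathing. Here 20 of the 38 genes fell, 4 rose and 14 did not pass, beside 18.9% and 17.4% of all genes (52.6% and 10.5% of the endothelial genes). Clec14a had a lowest, median and highest array of 9.27, 9.65 and 9.91 among the 10, a 2.85-fold fall (-1.51 ± 0.14, SE, adjusted p 1.01e-10). Myct1 had 7.97, 8.16 and 8.52, a 2.28-fold fall, and Egfl7 had 9.57, 9.96 and 10.31, a 2.01-fold fall. No high stretch array of these 3 genes reached the lowest control. Klf2 fell 1.9-fold, Sema3g 1.78-fold and She 1.75-fold. Ushbp1 (-0.57), Ptprb (-0.56), Gata2 (-0.46), Kank3 (-0.45), Arap3 (-0.42), Mmrn2 (-0.39), Eng (-0.36) and Cyyr1 (-0.36) fell as well. The defining markers now also passed, by small amounts. Cdh5 had 11.75, 11.88 and 11.94, all 10 arrays below the controls though the nearest values agreed to 2 decimals, and fell by 0.15 ± 0.04 (adjusted p 0.00371). Pecam1 had 11.41, 11.59 and 11.70 and fell by 0.17 ± 0.04 (0.00309). Erg had 9.35, 9.64 and 9.82 and fell by 0.32 ± 0.08, and Nos3 had 7.19, 7.44 and 7.55 and fell by 0.24 ± 0.08. Vwf had 10.62, 10.72 and 10.99 and did not pass (-0.16, adjusted p 0.114).

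The 4 rises were in Bcl6b, Cd93, S1pr1 and Esam. Bcl6b, read by probe set 10387797, had 8.74, 8.38, 8.48, 8.01 and 8.13 in the controls and 9.40, 9.63 and 10.06 as lowest, median and highest at high stretch, a 2.5-fold rise (adjusted p 1.13e-09). The groups were far apart. Cd93 had 12.03, 12.27 and 12.49 (0.32 ± 0.06, SE) and S1pr1 had 11.99, 12.21 and 12.24 against controls of 11.72, 11.77, 11.96, 12.06 and 11.97 (0.28 ± 0.07). Esam had 11.02, 11.24 and 11.35 (0.27 ± 0.08). In each of these 3 genes 9 of the 10 arrays were above every control. Emcn (-0.01), Robo4 (0.02), Palmd (-0.04), Sema3c (-0.06), Tal1 (0.09), Bmx (0.11), Ecscr (-0.13), Lmo2 (-0.14), Rasip1 (0.16), Foxf1 (-0.16), Gpihbp1 (-0.18), Nostrin (-0.19) and Npr3 (-0.47) did not pass. Foxf1 had a second probe set, where the change was -0.30 with an adjusted p of 0.00595 over all probe sets. All arrays were below the controls in 13 genes, against 7.91% of all genes. The calls of Cd34 (-0.14) and Plvap (-0.19) were lost in 11 and 10 of 15 fits without 1 array, that of Nos3 with array weights, and that of Esam in 1 of the 10 alternatives (adjusted p 0.099).

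High stretch in hypercapnia had 16 genes lower, 5 higher and 17 that did not pass, beside 17.6% and 16.3% of all genes. Clec14a had 8.78, 9.54 and 9.74 as lowest, median and highest array, a 3.15-fold fall (-1.65 ± 0.14, SE, adjusted p 1.28e-11). Myct1 had 7.00, 7.94 and 8.37, a 2.86-fold fall, and Egfl7 had 9.53, 9.78 and 10.06, a 2.28-fold fall. Every array of these genes was below the controls. Klf2 fell 2.01-fold, but its highest array, at 10.30, lay within the control range while the other 9 were below it. She (-0.72), Sema3g (-0.63), Gata2 (-0.58), Erg (-0.48), Ushbp1 (-0.47), Ptprb (-0.43), Kank3 (-0.42) and Arap3 (-0.36) fell, followed by Cyyr1 and Eng (-0.28 each), Mmrn2 (-0.18) and Pecam1 (-0.14). Bcl6b rose 2.42-fold, with 9.27, 9.58 and 10.27. Cd93 (12.22, 12.35 and 12.47) and Esam (11.07, 11.20 and 11.58) rose by 0.40 ± 0.06 and 0.30 ± 0.08, and in both all 10 arrays exceeded the controls. Rasip1 had 10.34, 10.57 and 11.16 and rose by 0.30 ± 0.11, and S1pr1 rose by 0.27 ± 0.07. Cdh5 was at -0.05, with an interval from -0.13 to 0.03, Nos3 at -0.14, Vwf at -0.09 and Cd34 at 0.01. In 12 genes all arrays were below the controls, against 5.98% of all genes. The call of Rasip1 was lost in 3 of the 10 alternatives (adjusted p up to 0.171) and without non-ventilated replicate 1 or 2, that of Mmrn2 without non-ventilated replicate 1, 2 or 3, that of Cyyr1 without non-ventilated replicate 2, that of Pecam1 in 2 alternatives and that of Esam in 1 (adjusted p 0.0507). The 4 comparisons above share the non-ventilated arrays, so their values are given side by side and are not independent.

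High stretch was then compared with low stretch directly. The non-ventilated arrays are in neither group and enter only the shared estimate of the spread. In normocapnia 6 of the 38 genes were lower at high stretch, 3 higher and 29 did not pass, which is 15.8% and 7.89% beside 9.56% and 8.72% of all genes. The median change was -0.06, with -0.02 over all genes, and was -0.03 without low stretch normocapnia replicate 3. Bcl6b had 8.75, 8.59, 8.18, 8.62 and 8.24 at low stretch and no high stretch array below 9.40, a 2.29-fold rise (1.19 ± 0.13, SE, adjusted p 5.34e-08). Robo4, with 9.10, 9.23, 9.28, 9.07 and 9.19 at low stretch and 9.19, 9.42 and 9.57 as lowest, median and highest at high stretch, rose by 0.23 ± 0.07. Ecscr, with 9.18, 9.05, 9.22, 8.92 and 9.01 and then 9.08, 9.34 and 9.51, rose by 0.23 ± 0.08. The high stretch means of Robo4 and Ecscr were near those of spontaneous breathing, 9.40 ± 0.11 and 9.31 ± 0.13 (SD, n = 10) beside 9.39 ± 0.13 and 9.45 ± 0.17 (SD, n = 5).

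Gata2 and Kank3 were lower at high stretch and had not moved at low stretch beyond their errors. Gata2 read 9.76, 9.75, 9.66, 9.91 and 10.00 in the controls, 9.71, 9.98, 9.88, 9.86 and 9.61 at low stretch and 9.07, 9.37 and 9.68 at high stretch, a 1.36-fold fall between stretch levels (adjusted p 0.0147). Kank3, an actin-linked protein gene, read 9.79, 10.07, 10.24, 10.19 and 10.07, then 10.04, 10.05, 10.18, 10.02 and 10.02, then 9.33, 9.68 and 9.93. Every high stretch array of Kank3 was below every low stretch array (-0.44 ± 0.10, SE, adjusted p 0.00163). Clec14a fell further, by 0.43 ± 0.14, and Gpihbp1 (-0.26 ± 0.08), Ptprb (-0.19 ± 0.06) and Cdh5 (-0.14 ± 0.04) were lower too. Klf2 was at -0.04, with an interval from -0.31 to 0.23, and Myct1 at -0.08. Egfl7 was at -0.28 (adjusted p 0.0805), Pecam1 at -0.11 (0.0967) and Vwf at -0.10 (0.455). Bcl6b and Kank3 kept their calls in every alternative and every fit without 1 array. The call of Ecscr was lost in 8 of 15 fits without 1 array and each of the other 6 in 1 or 2 of them. Without low stretch normocapnia replicate 4, 4 genes passed instead of 9, and over all genes 2826 instead of 3646.

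In hypercapnia 7 genes were lower at high than at low stretch, 4 were higher and 27 did not pass, beside 4.69% and 5.43% of all genes (18.4% and 10.5% of the endothelial genes). Bcl6b had 8.57, 7.97, 8.30, 8.59 and 8.15 at low stretch and rose 2.48-fold (adjusted p 2.07e-08), with no overlap. Palmd had 9.10, 9.34, 9.28, 9.40 and 9.50 and then 9.46, 9.63 and 10.27, a rise of 0.41 ± 0.11. Rasip1 had 10.49, 10.11, 10.16, 10.44 and 10.28 before its higher values at high stretch (0.34 ± 0.11) and Robo4 rose by 0.30 ± 0.07. Gata2 read 9.18, 10.02, 9.88, 9.82 and 10.16 at low stretch and 8.69, 9.27 and 9.63 at high stretch, a 1.49-fold fall. Its first low stretch array was the exception, well under the other 4. Kank3 read 9.92, 10.08, 10.30, 10.17 and 10.43 and then 9.22, 9.70 and 9.96, a 1.44-fold fall with 9 of 10 arrays below the low stretch range. Clec14a (-0.51 ± 0.14), Egfl7 (-0.34 ± 0.11), She (-0.34 ± 0.09), Ushbp1 (-0.22 ± 0.07) and Ptprb (-0.20 ± 0.06) fell too. Pecam1 was at -0.06, Cdh5 at -0.03 and Vwf at 0.00. Bcl6b, Kank3, Gata2 and Robo4 kept their calls in every alternative and every fit without 1 array. The call of Ushbp1 was lost in 12 of 15 such fits, that of Egfl7 in 10, Rasip1 in 5, She in 3, Ptprb in 2 and Clec14a in 1, and that of Palmd with only these groups in the fit. The count was 7, 6 and 6 without low stretch hypercapnia replicate 2, 3 or 5, and 5 with only these groups in the fit. Over all genes these fits gave 1346, 1528, 1278 and 1389, against 2017 with all arrays.

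**Figure D3:**
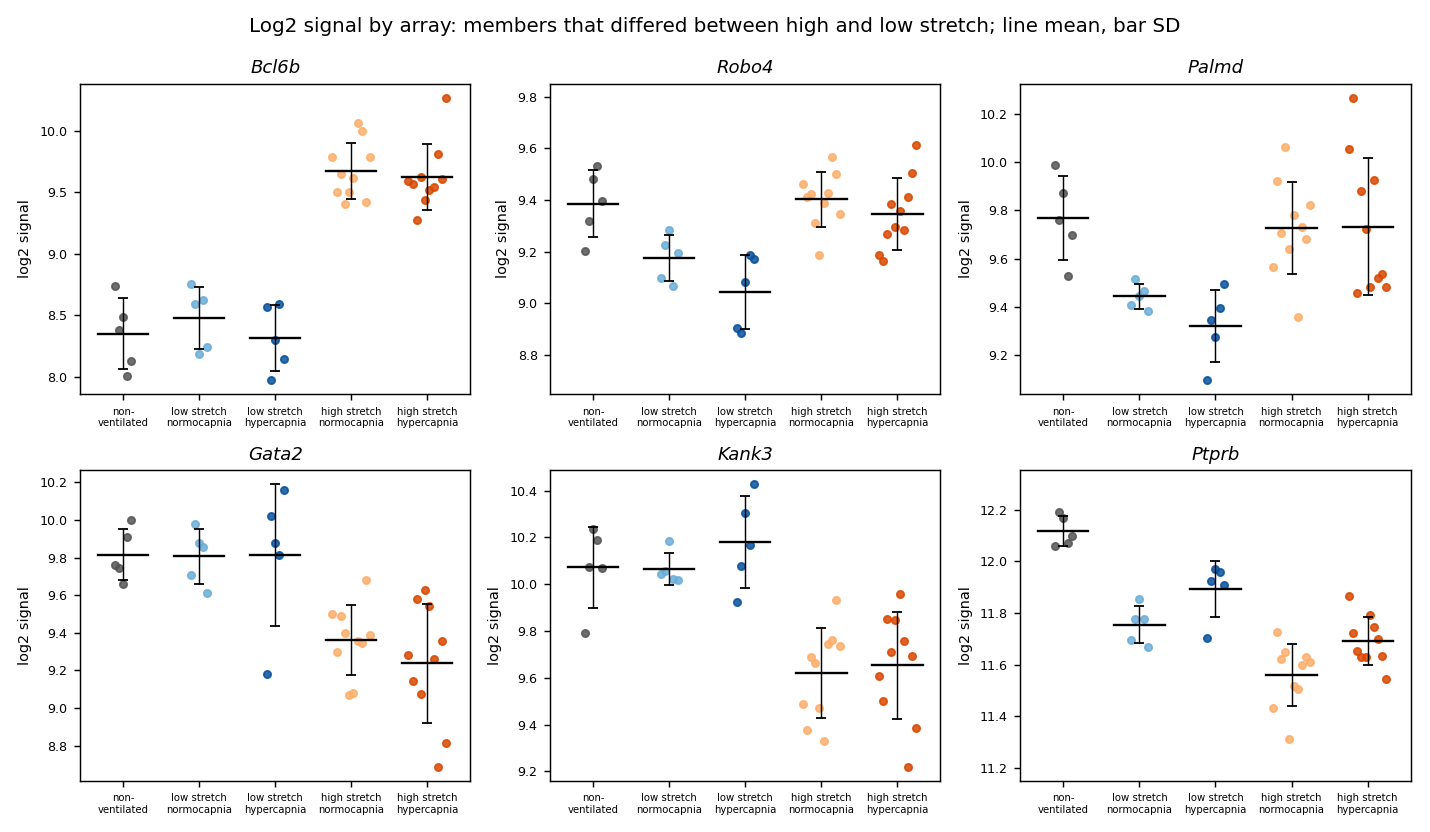
Log2 signal by array (points), group mean (line) and SD (bar) for 6 endothelial genes that differed between stretch levels in at least 1 gas; vertical axes differ and do not start at 0. All 20 high stretch arrays of Bcl6b lie at 9.27 or above and all other arrays at 8.75 or below.

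For CO2 few of these genes passed. At low stretch none of the 38 passed, beside 0.115% of all genes. An unadjusted p under 0.05 was found in 7 of the 38 (18.4%) and in 1839 of all 19938 genes (9.22%). The median was 0.00. Nos3, the gene with the smallest p, read 7.12, 7.42, 7.25, 7.41 and 7.39 without added CO2 and 7.70, 7.48, 7.66, 7.55 and 7.70 with it. All 5 hypercapnia arrays were above all 5 normocapnia arrays, but the change of 0.30 ± 0.09 did not pass (adjusted p 0.188). Foxf1 was at 0.30 (adjusted p 0.196), She at 0.26 and Sema3g at 0.25, whereas Pecam1 was at -0.02 and Cdh5 at -0.01, with an interval from -0.10 to 0.09.

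At high stretch 2 of the 38 genes were higher with CO2 and none lower (5.26% and 0%), beside 2.49% and 3.07% of all genes. Mmrn2 had 9.07, 9.26 and 9.40 as lowest, median and highest without CO2 and 9.40, 9.44 and 9.69 with it. All 10 hypercapnia arrays were above the normocapnia range, the nearest only just, and the rise was 1.16-fold (0.21 ± 0.05, SE, adjusted p 0.00546). Cd34 had 10.83, 10.94 and 11.15 and then 11.05, 11.09 and 11.17, a rise of 0.15 ± 0.04 (adjusted p 0.0413). Its groups overlapped through 1 normocapnia array, and the call was lost in 16 of 20 fits without 1 array. The difference was 0.10 for both Cdh5 (adjusted p 0.0759) and Nos3 (0.426), 0.03 for Pecam1 and 0.07 for Vwf. Klf2 was at -0.08, Erg at -0.16 and Egfl7 at -0.18, none of which passed. Foxf1 was at 0.19 (adjusted p 0.0767), while its second probe set was at 0.27 (adjusted p 0.0184 over all probe sets). Mmrn2 kept its call in every alternative and every fit without 1 array.

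The difference between the CO2 effects at high and low stretch was tested as an interaction. With limma 0 of the 38 genes and 0 of 19938 genes (0%) passed, and 1 and 893 had an unadjusted p under 0.05. The 1 was Cd34, at 0.20 (unadjusted p 0.0137, adjusted p 0.997). In none of the 10 alternatives or 30 fits without 1 array did any of the 38 pass.

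Other endothelial genes, from lists that do not overlap with the 38 except where stated, moved as follows with ventilation. Of 24 further receptors and factors 18 fell and none rose at low stretch in normocapnia (median -0.45). At high stretch 19 fell and 1 rose (median -0.50). Over all genes 5.17% fell and 6.63% rose at low stretch in normocapnia, and 18.9% and 17.4% at high stretch in normocapnia. The apelin receptor gene Aplnr (-1.48), the endothelin gene Edn1 (-1.33) and Tmem100 (-1.24) had the largest changes at low stretch. Sox7, which was 0.92 lower at low stretch, and Mcam, 0.51 lower, were higher at high than at low stretch in normocapnia, by 0.54 and 0.59. Arterial genes fell in 7 of 10 at low stretch normocapnia, led by the connexin gene Gja5 (-1.19), the Notch ligand gene Dll4 (-0.65) and Cxcl12 (-0.60), with a median of -0.37. Of 8 aerocyte (gas exchange capillary) genes 5 fell, with a median of -0.26, among them Apln (-0.52), Tbx2 (-0.45) and Chst1 (-0.44). The carbonic anhydrase gene Car4 fell by 0.24.

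Markers of other cells moved over the same comparisons. In low stretch normocapnia 11 of 13 neutrophil genes were higher and none lower (median 3.14), beside 6.63% and 5.17% of all genes. The mean over that list lay from 6.68 to 8.75 in the non-ventilated arrays and from 9.45 to 10.27 in the ventilated ones. All 9 B cell genes were lower (median -1.30), 5 of 10 T and NK cell genes were lower (median -0.42) and 2 of 11 monocyte and macrophage genes were higher (median 0.31). Platelet genes were higher in 2 of 7 (median 0.25) and mast cell genes in 1 of 8 (median -0.03). Of the lung's other resident cells, 3 of 12 alveolar type 2 genes (median -0.09), 2 of 10 alveolar type 1 genes (-0.14), 1 of 10 fibroblast genes (-0.11), 1 of 11 smooth muscle and pericyte genes (-0.10) and 2 of 8 club and ciliated genes (-0.14) were lower, none higher. At high stretch in normocapnia, where 18.9% of all genes fell, the falls were 6, 5, 7, 5 and 5 in the same lists, and 1 alveolar type 2, 1 fibroblast and 1 smooth muscle and pericyte gene rose. The alveolar type 1 list shares Cav1 with the further endothelial list and Emp2 with the aerocyte list. The part of these cells in the endothelial values was not tested.

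**Figure D4:**
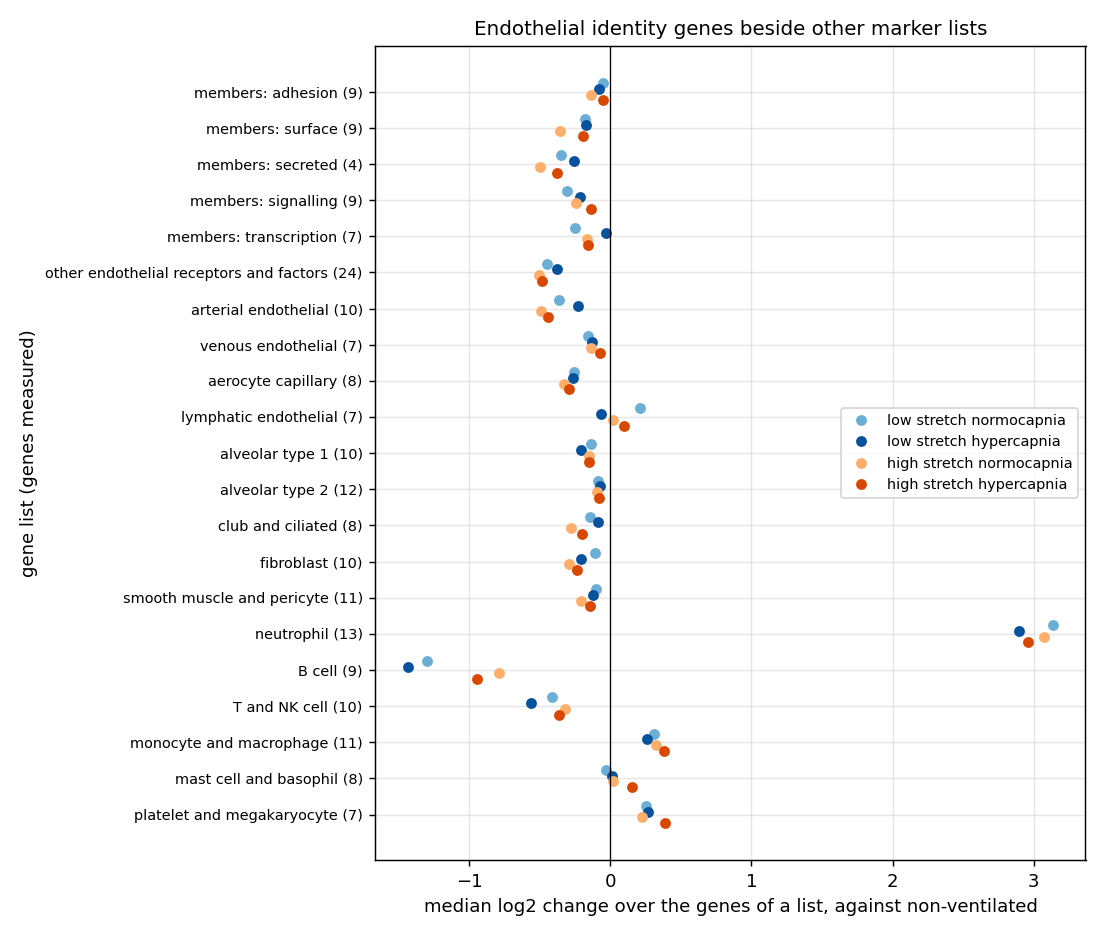
Median log2 change against the non-ventilated group over the genes of each list, for the 4 ventilated groups (points); the 38 endothelial genes are split by role in the first 5 rows and the number of measured genes is in brackets. Medians of the further endothelial and arterial lists lie between -0.50 and -0.23, those of neutrophil genes at 2.89 or above and those of B cell genes at -0.79 or below.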

How the data were processed

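RNA of 35 mouse lungs, extracted with Trizol and an RNeasy clean-up per the labels' protocols, was hybridised to 1 Affymetrix array each. The deposited values are log2 signals made by the authors with RMA. The submitters' processing notes name RMA, Affymetrix Expression Console and Partek, with versions not given in the sources used here. Of 35557 probe sets 21789 had 1 gene symbol in the platform annotation, 1621 had several and 12147 were not in it. The brightest probe set on average stood for each of 19938 genes, 999 of which had several.

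With limma 3.58.1 in R 4.3.3, 5 group means were fitted to all genes and arrays (lmFit, eBayes), 9 contrasts were taken, and p-values were adjusted by Benjamini-Hochberg within each contrast, with a threshold of 0.05. The fit was tested on simulated data. Intervals are 95%. The p-values measure the spread between animals. Array number limits the precision. The labels give no batch or date. The symbols in the probe annotation can be old.

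The genes, role groups and marker lists were chosen with earlier results of these data known. Every measured endothelial gene is named, with arrays shown for Pecam1, Cdh5, Erg, Nos3 and Vwf, for the 6 largest falls and 3 largest rises that passed at low stretch in normocapnia, and for the 3 largest each way in other contrasts. Of other lists up to 3 genes with the largest change are named, and any further gene was chosen after its values were seen. The alternatives were a replicate block, array weights, a trended robust prior, testing genes above the median level alone, all probe sets as rows, the mean of probe sets, median centring, a second quantile normalization, array spread as a covariate, only the compared groups, and leaving out each array.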

Additional observations from a re-analysis of the deposited data

Results flagged for a closer look

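In 8 of 190 sets of arrays (38 genes in 5 groups) the highest or lowest array stood apart by Dixon's criterion, which chance alone meets in about 1 in 20. No 2 of them were the same array. Nos3 in non-ventilated replicate 1 was the lowest of its group at 7.44, with the next at 7.67. Ptprb in low stretch hypercapnia replicate 1 was lowest at 11.70 (next 11.91). Ecscr in high stretch hypercapnia replicate 2 was lowest at 8.93 (next 9.19). The other 5 were highest in their group: Mmrn2 at 9.69 in high stretch hypercapnia replicate 7 (next 9.52), Arap3 at 10.26 in replicate 6 (next 10.03) and Nostrin at 10.00 in replicate 8 (next 9.72) of the same group, Cd34 at 11.15 in high stretch normocapnia replicate 9 (next 10.98), and Kank3 at 10.18 in low stretch normocapnia replicate 3 (next 10.05).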

How the results depend on the processing

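No change that passed reversed its sign under any alternative or without any array. Calls kept in every alternative and every fit without 1 array were 13 of 16 (low stretch normocapnia against non-ventilated), 6 of 16 (low stretch hypercapnia), 20 of 24 (high stretch normocapnia), 16 of 21 (high stretch hypercapnia), 1 of 2 (CO2 at high stretch), 2 of 9 (stretch in normocapnia) and 4 of 11 (stretch in hypercapnia). In the same order, the count of genes that passed ranged over the fits without 1 array from 15 to 17, 8 to 18, 22 to 25, 18 to 23, 1 to 3, 4 to 10 and 6 to 14, and was 0 for CO2 at low stretch and the interaction. Over the same fits the median change ran from -0.17 to -0.10 in low stretch hypercapnia, from -0.08 to -0.03 for stretch in normocapnia (-0.04 with median centring) and from -0.06 to -0.01 for stretch in hypercapnia (-0.03 with all arrays, -0.06 with array weights, -0.02 with median centring). With only the compared groups 7 passed for low stretch hypercapnia, 4 for CO2 at high stretch and 5 for stretch in hypercapnia, where fewer arrays estimate the spread. Array weights gave 7 for CO2 at high stretch and 14 for stretch in normocapnia. For CO2 at high stretch the trended robust prior gave 4, genes above the median level 7 and median centring 1. The counts over all genes moved too. With only the compared groups they were 1429, 1127 and 1389, against 2993, 1109 and 2017 with all groups. Array weights gave 2052 for CO2 at high stretch and 5030 for stretch in normocapnia, against 1109 and 3646. For CO2 at high stretch the trended robust prior gave 1192 and median centring 1075. The cause was not tested. The median change at high stretch in hypercapnia was -0.18 after a second quantile normalization, against -0.14. Testing only genes above the median level gave 18, 18, 26, 23, 7, 12 and 14 of 37 endothelial genes in the order above. The genes that passed in all were then 2380, 2888, 5883, 5487, 1313, 3372 and 2028, counted among genes above the median level alone. Among all 19938 genes 2353, 2993, 7237, 6748, 1109, 3646 and 2017 passed. Since 37 of the 38 endothelial genes lie above the median level, shares over all genes set them beside many genes of lower level. Replicate numbers showed no common pairing of the arrays over all groups. Over 55 pairs of groups and numbers the correlation of deviations ran from -0.34 to 0.38 (median 0.02) and exceeded 0.1 in 17. All 5 were positive between non-ventilated and low stretch normocapnia (0.02 to 0.19) and between low and high stretch normocapnia (0.04 to 0.26). All 5 were negative between non-ventilated and high stretch hypercapnia (-0.34 to -0.03). Whether some groups share a batch by number was not tested. With the number as a replicate block 17, 17, 24, 19, 3, 7 and 10 genes passed in the order above, and 0 for CO2 at low stretch and the interaction. Over all genes the block gave 2361, 3017, 6217, 5638, 1128, 2626 and 1269 in that order. The block lost Esam and Cd34 at high stretch in normocapnia, Pecam1, Esam and Rasip1 at high stretch in hypercapnia, Cd34 for CO2 at high stretch, Robo4, Clec14a, Ecscr and Gata2 for stretch in normocapnia, and Clec14a and Rasip1 for stretch in hypercapnia.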

Other observations

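Genes known to answer to KLF2 or to shear stress moved in both directions at low stretch in normocapnia. The list was not split by the direction in which KLF2 or shear stress moves each gene. Of 10 such genes 5 fell and 2 rose (median -0.12), beside 5.17% and 6.63% of all genes. The list includes Nos3 and S1pr1 from the genes above. It also shares Kdr, Edn1, Thbd and Slco2a1 with the further endothelial list, so those changes are counted in both. The heme oxygenase gene Hmox1 rose by 1.67 and the quinone reductase gene Nqo1 by 0.83, while Edn1 fell by 1.33. Of 8 genes tied to endothelial activation 2 rose and 3 fell (median 0.01), with Lrg1 at 0.97, Esm1 at -0.91 and Angpt2 at -0.68. Of 7 venous genes 2 fell and 1 rose, with Nr2f2 at -0.57, Ackr1 at 0.44 and Ephb4 at -0.34. Of 7 lymphatic genes only Lyve1 passed, at 0.33. Higher at high than at low stretch were 6 of 9 B cell genes in normocapnia and 5 of 9 in hypercapnia (median 0.39 in both). Over all genes 8.72% were higher in normocapnia and 5.43% in hypercapnia. Neutrophil genes passed in 0 of 13 in both.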
